A study of Rattus norvegicus with 6 samples.

Results

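The genes described here encode the neurofilament subunits and other proteins of the neuronal cytoskeleton and axon. They are Nefl, Nefm, Nefh, Prph, Ina, Tubb3, Stmn2, Gap43, Uchl1 and Elavl4, 10 of the 17833 genes listed in bulk RNA-seq data of rat pulmonary veins (PVs). They were taken by symbol, and their choice was made with the difference between the groups known. Their differences are therefore given as a description with no test. Neurons build their axons on microtubules and on intermediate filaments, and the neurofilament triplet assembles with alpha-internexin or peripherin into filaments that set the caliber of the axon. Autonomic and sensory nerve fibers run in the adventitia of the PVs, and ganglia lie where the veins enter the left atrium.

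RNA was isolated with Trizol from right upper lobe PVs of wild-type Sprague-Dawley rats at postnatal day 21. In the BPVB group (3 rats), bilateral pulmonary vein banding had been performed at postnatal day 1, and the sham group (3 rats) had been operated on without banding. The whole vein was sequenced, so that every cell type of the vein and of the tissue left on it contributed RNA, and fewer cells of a type and less RNA per cell cannot be told apart. The deposited values were FPKM, the fragments of a gene scaled by its length and by the library total, 1 value per gene and rat. Whole fragment numbers were worked back from the FPKM, and library totals were between 26078189 and 29725808 fragments in the BPVB group and between 23439506 and 23821184 in the sham group. Tests on other genes used limma on log2(FPKM + 0.5), two-sided, with Benjamini-Hochberg adjustment over the 15150 genes whose FPKM averaged 0.1 or more. Adding 0.5 understates the change of genes with few fragments, so ratios of mean FPKM are given for the 10 genes and for some of the list genes.

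The promoters of 5 of the 10 genes (Ina, Elavl4, Prph, Uchl1 and Tubb3) were matched in the RefSeq table of the GRCr8 build. The genome build of the deposited values is not given in the sources used here. The 250 bases before the start of each gene were searched on both strands for GGGCGG, the core motif of the Sp1 family, and then for the core promoter motif TATAAA. These motifs do not overlap each other. Tubb3, Prph and Uchl1 are shown: the levels of Tubb3 differed far more between the groups than those of Prph and Uchl1, which differed by like amounts. Capitals mark the motifs, and a motif on the opposite strand is seen as its reverse complement.
Tubb3 (chr19:68365437-68365686, plus strand): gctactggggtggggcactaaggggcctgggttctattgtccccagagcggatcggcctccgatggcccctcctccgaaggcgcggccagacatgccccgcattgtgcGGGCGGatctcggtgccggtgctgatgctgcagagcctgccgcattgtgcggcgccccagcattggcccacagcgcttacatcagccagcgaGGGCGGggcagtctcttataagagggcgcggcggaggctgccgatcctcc
Prph (chr7:132097039-132097288, plus strand): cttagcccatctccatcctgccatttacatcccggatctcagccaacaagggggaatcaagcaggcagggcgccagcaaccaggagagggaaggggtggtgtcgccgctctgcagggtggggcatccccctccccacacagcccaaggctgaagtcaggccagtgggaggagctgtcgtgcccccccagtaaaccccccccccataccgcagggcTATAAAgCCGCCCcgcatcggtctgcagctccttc
Uchl1 (chr14:41849418-41849667, minus strand): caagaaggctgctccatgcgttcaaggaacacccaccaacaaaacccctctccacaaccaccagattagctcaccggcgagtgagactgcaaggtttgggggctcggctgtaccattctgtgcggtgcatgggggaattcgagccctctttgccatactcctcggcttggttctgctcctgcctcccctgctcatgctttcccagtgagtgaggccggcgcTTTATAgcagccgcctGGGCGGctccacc

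GGGCGG was found in 4 of the 5 promoters (Ina, Prph, Uchl1 and Tubb3) and in 30.5% of all 33469 promoters of the table. TATAAA was found in 2 of the 5 (Prph and Uchl1) and in 12.9% of all promoters. In Prph the TATAAA began 35 bases before the start of the gene, on its own strand. In Uchl1 it began 29 bases before the start, on the opposite strand. Tubb3 had GGGCGG at 142 and 50 bases before its start and no TATAAA in this stretch. The matches describe the letters of the reference only.

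In the sham group the genes formed 3 levels on the FPKM scale, which is per length. Stmn2 was highest, at 12.0 ± 1.1 FPKM (SD, n = 3). Uchl1, Tubb3, Prph, Nefl and Gap43 followed, with group means from 8.04 down to 5.88, and the ranges of the neighbours in this order overlapped. Nefm was at 1.16 ± 0.093, and Ina, Elavl4 and Nefh were below it, at means of 0.543, 0.267 and 0.168, with overlapping ranges for Elavl4 and Nefh only. Among all listed genes, the sham mean of Stmn2 was at percentile 70.7 and that of Nefh at percentile 19.2. In the BPVB group Stmn2 was again highest, at 10.7 ± 1.1 FPKM, and Uchl1, Prph and Gap43 followed with means of 4.39, 3.94 and 3.00 and overlapping neighbours. Prph and Gap43 stood above Tubb3 and Nefl without overlap, whereas in the sham group the ranges of Tubb3, Prph and Nefl overlapped.

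The mean of each of the 10 genes was lower in the BPVB group. For 8 of them every BPVB value was below every sham value, which held for 20.5% of all tested genes, and Stmn2 and Nefh overlapped between the groups. The log2 fold change was below -1 for 3 of the 10 (Nefl, Nefm and Tubb3), beside 1.04% of all tested genes. Because the genes were chosen on this contrast, nothing is read from these counts. All 10 genes passed the filter on low values, and Nefh and Elavl4 passed it through the sham libraries, since their BPVB means were below 0.1 FPKM.

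**Figure D1:**
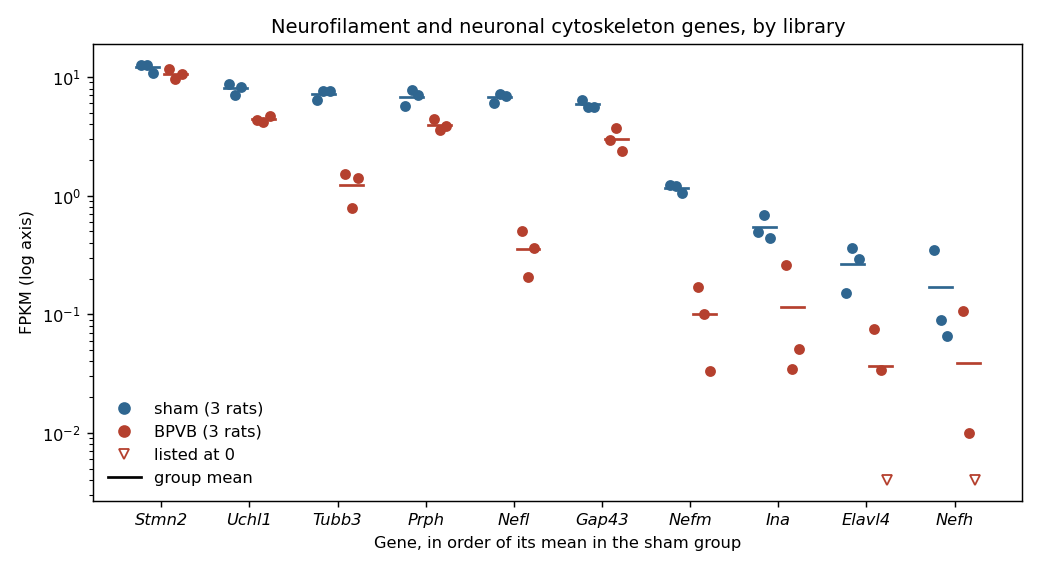
FPKM of the 10 genes in each library, on a log axis, in order of the sham mean. Points are rats, lines are group means and open triangles are values listed at 0. Nefl, Nefm and Tubb3 were far apart between the groups, Uchl1, Prph and Gap43 were apart by less, and Stmn2 and Nefh overlapped.

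Nefl (NCBI Gene 83613) encodes the light subunit, on which the neurofilament is built. Its FPKM were 0.499, 0.208 and 0.365 in BPVB replicates 1 to 3 and 6.04, 7.24 and 6.94 in sham replicates 1 to 3. The 3 BPVB libraries together held 60 fragments of Nefl and the 3 sham libraries 970, although the BPVB libraries were the deeper ones. All BPVB values were far below all sham values, and the sham mean was 18.9 times the BPVB mean, with a log2 fold change of -3.09 (SE 0.15). Among all listed genes, the mean of Nefl was at percentile 59.1 in the sham group and at percentile 23.3 in the BPVB group.

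Nefm (NCBI Gene 24588) encodes the medium subunit, whose tail projects sideways from the filament. Its FPKM were 0.171, 0.10 and 0.0329 in the BPVB group and 1.22, 1.21 and 1.05 in the sham group. These values rest on 14, 8 and 3 fragments against 89, 87 and 77. The groups did not overlap, and the sham mean was 11.5 times the BPVB mean, with a log2 fold change of -1.47 (SE 0.14). Without BPVB replicate 1 the ratio was 17.5. Nefl and Nefm are neighbouring protein-coding genes in the RefSeq table of GRCr8. The protein-coding gene on the other side of Nefl is Dock5, and its log2 fold change was 0.27 (SE 0.12, limma adjusted p = 0.13).

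Nefh (NCBI Gene 24587) encodes the heavy subunit, which neurons add as the axon matures. Its FPKM were 0.107, 0.00998 and 0 in the BPVB group and 0.350, 0.0888 and 0.0655 in the sham group. BPVB replicate 1 exceeded sham replicates 2 and 3, so the groups overlapped. Of the 46 sham fragments, 32 came from sham replicate 1. The 0 in BPVB replicate 3 allows up to 0.0263 FPKM, the level of 3 fragments. The sham mean was 4.30 times the BPVB mean, and the log2 fold change was -0.29 (SE 0.20). That ratio was 1.97 without sham replicate 1, 2.87 without BPVB replicate 3 and 33.7 without BPVB replicate 1.

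Ina (NCBI Gene 24503) encodes alpha-internexin, a filament subunit of developing and central neurons. Its FPKM were 0.259, 0.0346 and 0.0506 in the BPVB group and 0.494, 0.693 and 0.442 in the sham group. BPVB replicate 1 held 23 of the 31 BPVB fragments and came closest to the sham libraries, without reaching them. The sham mean was 4.73 times the BPVB mean, or 12.7 times without BPVB replicate 1, and the log2 fold change was -0.77 (SE 0.18).

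Prph (NCBI Gene 24688) encodes peripherin, the filament subunit of peripheral neurons. Its FPKM were 4.41, 3.57 and 3.83 in the BPVB group and 5.74, 7.74 and 7.07 in the sham group. The groups did not overlap, but they lay closer together than for Nefl. The sham mean was 1.74 times the BPVB mean, with a log2 fold change of -0.72 (SE 0.12), and 673 BPVB and 1008 sham fragments stood behind these values.

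The make-up of the summed neuronal intermediate filament transcripts (Nefl, Nefm, Nefh, Ina and Prph) differed accordingly. The sum was 4.55 ± 0.80 FPKM in the BPVB group and 15.5 ± 1.6 in the sham group (SD, n = 3). In BPVB replicates 1 to 3, Prph made up 81.0%, 91.0% and 89.5% of it, and in sham replicates 1 to 3 it made up 41.5%, 45.6% and 45.4%. Prph and Nefl were at nearly the same level in each sham library, with Prph to Nefl ratios of 0.95, 1.07 and 1.02. In the BPVB libraries the ratio was 8.83, 17.1 and 10.5. Without Prph, the filament genes summed to 0.613 ± 0.37 FPKM in the BPVB group and 8.62 ± 0.57 in the sham group, a ratio of 14.1. The BPVB values were 1.04, 0.353 and 0.449 in replicates 1 to 3, so this ratio depends on BPVB replicate 1.

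**Figure D2:**
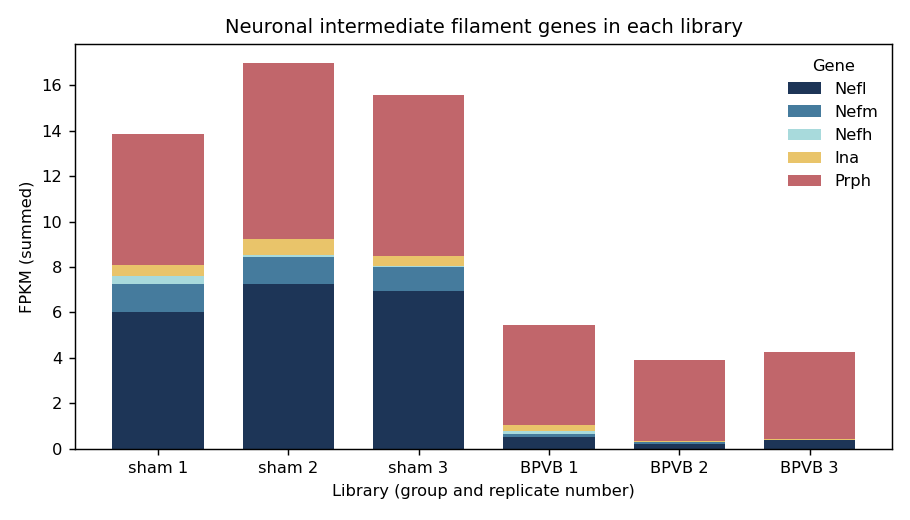
Summed FPKM of the 5 neuronal intermediate filament genes in each library, with 1 bar per rat and colors for the genes. Nefl (dark blue) and Prph (red) are of similar height in the sham bars, whereas Prph makes up at least 81.0% of each BPVB bar.

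Tubb3 (NCBI Gene 246118) encodes the class III beta-tubulin, a standard marker of neurons. Its FPKM were 1.51, 0.783 and 1.41 in the BPVB group and 6.37, 7.57 and 7.64 in the sham group. The groups did not overlap, and the sham mean was 5.83 times the BPVB mean, with a log2 fold change of -2.17 (SE 0.17). Tubb3 was a small part of the beta-tubulin transcripts of the vein. It made up 0.354%, 0.183% and 0.340% of the summed FPKM of 8 beta-tubulin genes in BPVB replicates 1 to 3 and 1.48%, 1.69% and 1.67% in the 3 sham rats. That sum was 423 ± 6.6 FPKM in the BPVB group and 446 ± 15 in the sham group, so the sum itself differed by 1.05 times. Tubb5 and Tubb4b, which most cells express, made up most of it, at 194 ± 5.6 and 131 ± 3.2 FPKM in the BPVB group and 205 ± 6.4 and 136 ± 2.9 in the sham group, with overlapping values. Beta-tubulin genes are similar in sequence, and how reads that fit several of them were counted is not given in the sources used here.

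Stmn2 (NCBI Gene 84510) encodes stathmin-2, which binds tubulin in growth cones. Its FPKM were 11.8, 9.67 and 10.6 in the BPVB group and 12.7, 12.7 and 10.8 in the sham group. BPVB replicate 1 exceeded sham replicate 3, and the groups overlapped. The sham mean was 1.13 times the BPVB mean. The log2 fold change was -0.17 (SE 0.092), the smallest in size among the 10 genes, and it rests on 1631 BPVB and 1581 sham fragments. Stmn2 thus made up 44.7% ± 1.1 of the summed FPKM of the 10 genes in the BPVB group and 24.6% ± 2.0 in the sham group (SD, n = 3).

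Gap43 (NCBI Gene 29423) encodes a membrane protein of growing axons that Schwann cells can express too. Its FPKM were 2.96, 3.70 and 2.36 in the BPVB group and 6.44, 5.61 and 5.60 in the sham group. The groups did not overlap, and the sham mean was 1.96 times the BPVB mean, with a log2 fold change of -0.88 (SE 0.14). BPVB replicate 2 was the highest BPVB library for Gap43, whereas replicate 1 was the highest for 8 of the 10 genes.

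Uchl1 (NCBI Gene 29545) encodes PGP9.5, a ubiquitin hydrolase used to stain nerve fibers and neuroendocrine cells. Its FPKM were 4.38, 4.14 and 4.65 in the BPVB group and 8.76, 7.06 and 8.30 in the sham group. The BPVB libraries lay close together and all below the sham libraries. The sham mean was 1.83 times the BPVB mean, with a log2 fold change of -0.80 (SE 0.097).

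Elavl4 (NCBI Gene 432358) encodes HuD, a neuronal RNA-binding protein that stabilizes transcripts such as that of Gap43. Its FPKM were 0.0751, 0.0341 and 0 in the BPVB group and 0.150, 0.361 and 0.290 in the sham group. The groups did not overlap, but only 13 BPVB and 85 sham fragments stood behind them, and the 0 in BPVB replicate 3 allows up to 0.0225 FPKM. The log2 fold change was -0.51 (SE 0.16), and the sham mean was 7.33 times the BPVB mean. BPVB replicate 1 held 9 of the 13 BPVB fragments, and the ratio was 15.6 without it and 4.89 without BPVB replicate 3.

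Together the 10 genes summed to 26.2, 22.3 and 23.3 FPKM in the 3 banded rats and 48.3, 50.2 and 48.2 in the 3 sham rats. The sham mean of this sum was 2.05 times the BPVB mean, and 2.79 times when Stmn2 was left out. The genes thus spread over a wide range of ratios, from 1.13 for Stmn2 to 18.9 for Nefl. Uchl1, Prph and Gap43 lay between 1.74 and 1.96, and Tubb3 stood at 5.83. Counted as fragments per 1000000 of a library, the 10 genes took 45.7, 37.4 and 39.3 in the banded rats and 84.8, 91.0 and 85.2 in the sham rats.

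The likeness of profiles across the 6 libraries was measured as the root mean square difference of log2(FPKM + 0.5) after each gene was centred on its mean, over 12156 genes whose FPKM averaged 1 or more. The 6 libraries hold 2 groups, so a gene with a similar group difference is like by this measure. The genes nearest to Nefl were Cd300lg (difference 0.21), Dbp (0.24), Ifit1 (0.28), Nr1d1 (0.37), Tubb3 (0.47) and Ciart (0.51). Tubb3 is the neuronal gene among these 6, and Dbp, Nr1d1 and Ciart belong to the circadian clock. Gap43, Uchl1 and Prph came at ranks 198, 216 and 257 from Nefl, and Stmn2 at rank 2682. The genes nearest to Uchl1 were Acot11 (0.060), Pxmp2 (0.064), Ppp2r2c (0.065), Tatdn3 (0.071), Pcsk6 (0.071) and Mrps28 (0.072). Gap43 and Prph came at ranks 580 and 597 from Uchl1, and Stmn2 at rank 2816. Tubb3 and Nefl, lower in BPVB by larger amounts than Uchl1, came near the end, at ranks 11423 and 12034. The measure is not scaled to the size of a difference.

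The neuronal genes around these 10 were described by 11 lists with 147 other genes, of which 140 were listed and 124 were tested. Of the 124, 47 fell in BPVB (37.9%, against 14.3% of all tested genes), 18 rose (14.5%, against 17.2%) and 59 were not called (limma, adjusted p under 0.05). DEGs, which also have an absolute log2 fold change above 1, numbered 18 lower (14.5%, against 1.03%) and 7 higher (5.65%, against 2.24%). The median log2 fold change was -0.22, beside 0.025 for all tested genes. Of the 124, 18 had a BPVB mean below 0.1 FPKM and so passed the filter through the sham libraries only, and 1 had a sham mean below it. A gene that passed in this way had to be lower in BPVB, and 11 of the 47 falls and 6 of the 18 lower DEGs were such genes. Among the 105 genes with a mean of at least 0.1 FPKM in each group, 36 fell (34.3%, against 14.6% of all tested genes of that kind) and 18 rose (17.1%, against 17.2%). DEGs among them were 12 lower (11.4%, against 0.98%) and 7 higher (6.67%, against 2.17%), and the median was -0.14, beside 0.022. This count was added after seeing the data and leaves out genes that fell to near 0. The lists were written with earlier results of these data known.

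**Figure D3:**
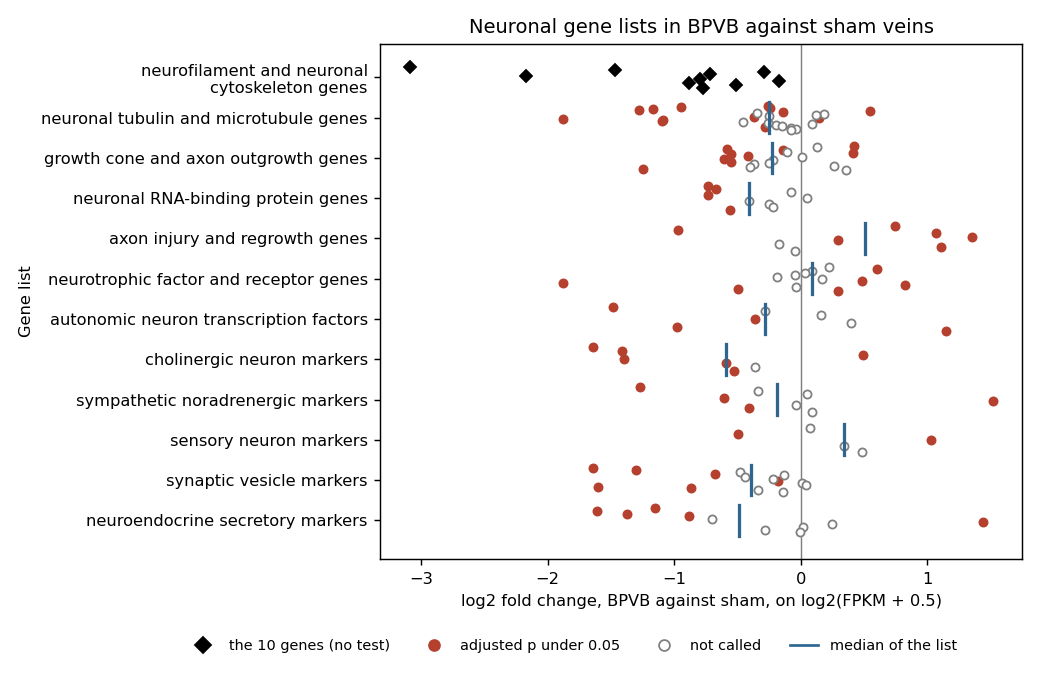
Log2 fold change (BPVB against sham, on log2(FPKM + 0.5)) of each tested gene, by list. Diamonds are the 10 genes, given with no test, filled circles passed an adjusted p of 0.05 in limma, open circles did not, and blue lines are list medians. Of the filled circles, 11 are genes that passed the filter through the sham libraries only and so had to be lower in BPVB. The medians include genes that passed the filter through the sham libraries only, and without genes below 0.1 FPKM in either group the cholinergic median goes from -0.59 to -0.02 and the RNA-binding median from -0.41 to -0.25.

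Among 25 neuronal tubulin and microtubule genes, 11 fell and 2 rose, with a median of -0.25. Stmn3, a stathmin like Stmn2, fell the most, at 0.410, 0.489 and 0.0307 FPKM in the BPVB group and 1.65, 3.23 and 2.49 in the sham group (log2 fold change -1.88, limma adjusted p = 8.5e-04), with a sham mean 7.92 times the BPVB mean. Tubb4a fell by 1.28 and Tubb2b by 1.17 on the log2 scale (limma adjusted p = 0.0024 and 1.8e-05), with ratios of 3.30 and 2.55. Tubb2b has a near-identical copy in Tubb2a, so the split of reads between them is uncertain. The genes that rose were Map1a, which binds microtubules, and Stmn1, the stathmin of dividing cells, by 0.55 and 0.14 (limma adjusted p = 3.3e-04 and 0.028). The call of Stmn1 was lost with median-of-ratios scaling (limma adjusted p = 0.056) and without any single library other than BPVB replicate 2 (limma adjusted p from 0.061 to 0.081).

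The synaptic vesicle list had 6 of 14 genes lower and 0 higher. Snap25, a fusion protein of the synapse, fell by 1.64, Syp, the vesicle protein synaptophysin, by 1.60 and the calcium sensor Syt1 by 1.3 (limma adjusted p = 5.4e-05, 0.0011 and 4.5e-04). Their ratios of sham to BPVB means were 4.38, 4.04 and 4.63. Of the 7 neuroendocrine secretory genes with a mean of at least 0.1 FPKM in each group, 3 fell and 1 rose. The granins Scg2 and Scg3 fell by 1.61 and 1.37, and Pcsk1, a prohormone convertase, rose by 1.44 (limma adjusted p = 2.4e-04, 7.5e-05 and 1.8e-04). The sham mean was 7.52 times the BPVB mean for Scg2 (12.6 without BPVB replicate 1) and 4.02 times for Scg3. The BPVB mean of Pcsk1 was 7.37 times its sham mean.

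By transmitter type, 5 of the 7 tested cholinergic genes had a BPVB mean below 0.1 FPKM and passed the filter through the sham libraries only, so no count is given for this list and the levels of such genes are given with no test. Slc18a3, the vesicular acetylcholine transporter, was at 0 in every BPVB library and at 1.28, 0.969 and 0.953 FPKM in the sham group, at least 27.9-fold lower when the BPVB group is set to 3 fragments per library. Slc5a7, the choline transporter, was at 10 fragments in the BPVB group and 314 in the sham group, and its sham mean was 37.4 times the BPVB mean, or 57.9 times without BPVB replicate 3. Chrna3, the nicotinic receptor subunit of autonomic ganglia, was at 0 in every BPVB library and at least 11.6-fold lower. The genes with a mean of at least 0.1 FPKM in each group were Ache, which breaks down acetylcholine and rose by 0.49, and Chrna7, a nicotinic subunit, which fell by 0.53 (limma adjusted p = 0.0090 and 0.025). The call of Chrna7 was lost without BPVB replicate 1 or sham replicate 2 or 3 (limma adjusted p from 0.071 to 0.081) and with limma-voom on fragments (limma adjusted p = 0.16). Chat, the enzyme that makes acetylcholine, did not reach the filter and had 0 BPVB and 45 sham fragments.

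Of the 7 sympathetic genes with a mean of at least 0.1 FPKM in each group, 2 fell, 1 rose and 4 were not called. The 8 genes of this list summed to 155 to 166 FPKM in the BPVB libraries and 160 to 167 FPKM in the sham libraries. Slc6a2, the noradrenaline transporter, rose by 1.52 (limma adjusted p = 3.6e-05), with a BPVB mean 3.74 times the sham mean. Th, the rate-limiting enzyme of catecholamine synthesis, passed the filter through the sham libraries only, at 13 BPVB and 124 sham fragments, with a sham mean 11.5 times the BPVB mean, or 18.6 times without BPVB replicate 3. Slc6a2 is also known from lung endothelium. Slc18a2, the vesicular monoamine transporter, fell by 0.61 (limma adjusted p = 0.025), and its call was lost without any library other than BPVB replicate 2 (limma adjusted p from 0.050 to 0.085). Dbh, which makes noradrenaline, had a log2 fold change of -0.34 (limma adjusted p = 0.18). Of the 4 such sensory genes, 0 fell and 1 rose, the mechanosensitive channel Piezo2, by 1.03 (limma adjusted p = 6.1e-04). The BPVB mean of Piezo2 was 3.36 times its sham mean. The sodium channel Scn9a passed through the sham libraries only, at 11 BPVB and 160 sham fragments. Of the 4 autonomic transcription factors at or above the filter in each group, 1 fell and 1 rose. Phox2a, which autonomic neurons need, was at 0 in every BPVB library and at least 13.4-fold lower, as was Tlx2 at least 8.64-fold. Both passed the filter through the sham libraries only. Tbx20, a cardiac and vascular factor also found in cranial motor neurons, rose by 1.15 (limma adjusted p = 2.0e-07).

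In the axon injury and regrowth list, 5 of 8 tested genes rose and 1 fell, with a median of 0.51. The neuropeptides Gal and Nts rose by 1.35 and 1.11 and the transcription factor Sox11 by 1.07 (limma adjusted p = 1.6e-04, 0.028 and 0.0059). Their BPVB means were 3.2, 2.77 and 7.37 times the sham means. Sox11 rests on 139 BPVB and 16 sham fragments. Its sham mean was 0.136 times the BPVB mean, or 0.0893 times without sham replicate 3. The call of Nts was lost without BPVB replicate 1 or 2 or sham replicate 1 or 3 (limma adjusted p from 0.058 to 0.088). Jun, a factor that many cell types induce, fell by 0.97 (limma adjusted p = 1.3e-07). In the neurotrophic list, 2 of 13 fell and 4 rose. Ret, the receptor kinase for the GDNF family, fell by 1.88, whereas its co-receptor Gfra1 rose by 0.82 and the neurotrophin Bdnf by 0.60 (limma adjusted p = 5.1e-05, 3.7e-04 and 0.0018). The sham mean of Ret was 5.98 times the BPVB mean. The BPVB means of Gfra1 and Bdnf were 1.91 and 1.59 times the sham means.

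In the growth cone list, 7 of 18 genes fell and 2 rose, and Tagln3, Cntn1 and Crmp1 fell by 1.25, 0.61 and 0.58 (limma adjusted p = 9.2e-04, 0.013 and 0.019), with ratios of sham to BPVB means of 4.88, 2.0 and 2.89. Crmp1 lost its call without BPVB replicate 2 or 3 or sham replicate 1 or 2 (limma adjusted p from 0.056 to 0.067). In the RNA-binding list, 4 of the 9 tested genes passed the filter through the sham libraries only, and of the other 5, 2 fell and 0 rose. Nova1 fell by 0.73 and Rbfox1, which heart muscle also expresses, by 0.67 (limma adjusted p = 0.0030 and 2.6e-04), with ratios of 2.44 and 1.66. Elavl2, a paralog of Elavl4, was at 9 BPVB and 120 sham fragments, a ratio of 15.5 (24.2 without BPVB replicate 1), and 67 of the sham fragments came from sham replicate 3.

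Of 15 intermediate filament genes of other cells, 6 rose, 1 fell and 8 were not called (limma), with a median of 0.24. Krt7, Krt8 and Krt19, keratins of epithelia, rose by 2.29, 1.03 and 0.99 (limma adjusted p = 1.9e-04, 2.0e-04 and 0.0034). Des, the desmin of muscle, was at 552 ± 7.6 FPKM in the BPVB group and 414 ± 5.8 in the sham group (limma adjusted p = 2.7e-06). Vim, the vimentin of mesenchymal cells, rose by 0.34 and Nes, the nestin of progenitors and Schwann cells, fell by 0.63 (limma adjusted p = 5.3e-06 and 9.4e-05), both chosen after their values were seen.

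By the GO terms deposited with the table, 8 of the 10 genes carried the term axon. The terms growth cone, perikaryon and neuronal cell body were carried by 5 each. These terms were chosen after the values were seen. Of the 399 other tested genes with the term axon, 80 fell (20.1%, against 14.3% of all tested genes) and 69 rose (17.3%, against 17.2%). Their median log2 fold change was -0.01. Of the 160 others with growth cone, 28 fell (17.5%) and 26 rose (16.2%). For perikaryon, 24 of 159 others fell (15.1%) and 43 rose (27.0%). For neuronal cell body, 94 of 519 others fell (18.1%) and 113 rose (21.8%).

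Markers of other cell types moved with the same contrast. Of 17 Schwann cell and glial markers, 11 fell and 1 rose (median -0.50), and their summed level was 198 to 201 FPKM in the BPVB libraries and 292 to 296 in the sham libraries. Foxd3 fell by 0.85 and Mag by 0.90 (limma adjusted p = 0.0094 and 0.015), with ratios of sham to BPVB means of 2.49 and 4.2. Without BPVB replicate 2 or sham replicate 1 or 2 the call of Mag was lost, at limma adjusted p from 0.051 to 0.057. No marker of the list was at 0 in every BPVB library, and S100b, which other cells express too, rose by 0.78 (limma adjusted p = 0.0053).

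Of 10 cardiomyocyte markers, 8 fell and 2 rose (median -0.26), with sums of 16600 to 17100 FPKM in the BPVB libraries and 22500 to 22900 in the sham libraries. Of 9 tested lung epithelial markers, 8 rose and 1 fell (median 2.54), with sums of 654 to 705 FPKM and 134 to 140 FPKM. Foxj1, the marker of ciliated cells, was near 0 in both groups, with 0 BPVB fragments and 1 sham fragment. Sftpc, the surfactant protein of alveolar type II cells, was at 390 ± 22 FPKM in the BPVB group and 36.6 ± 1.4 in the sham group (limma adjusted p = 8.6e-10). Of 8 macrophage markers, 7 rose and 0 fell, with sums of 656 to 679 FPKM and 213 to 218 FPKM. Smooth muscle sums were 5230 to 5280 FPKM and 5470 to 5500 FPKM, with 2 of 8 markers higher and 4 lower. Fibroblast sums were 4200 to 4210 FPKM and 3720 to 3740 FPKM, with 4 higher and 2 lower of 8, and endothelial sums were 1080 to 1100 FPKM and 1220 to 1230 FPKM, with 0 higher and 5 lower of 8. Apart from Foxj1, no marker of these 7 lists was at 0 in every BPVB library. Most of these markers stood well above the sham levels of the neuronal genes listed at 0, so nothing is read from this. These lists moved with the contrast, and their part in the lower levels of the neurofilament and neuronal cytoskeleton genes was not tested. The sums of the 10 genes stood at a BPVB to sham ratio of 0.489, below the 0.678 of the Schwann cell list and the 0.745 of the cardiomyocyte list. Because the 10 genes were chosen on this contrast, nothing is read from this order.

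**Figure D4:**
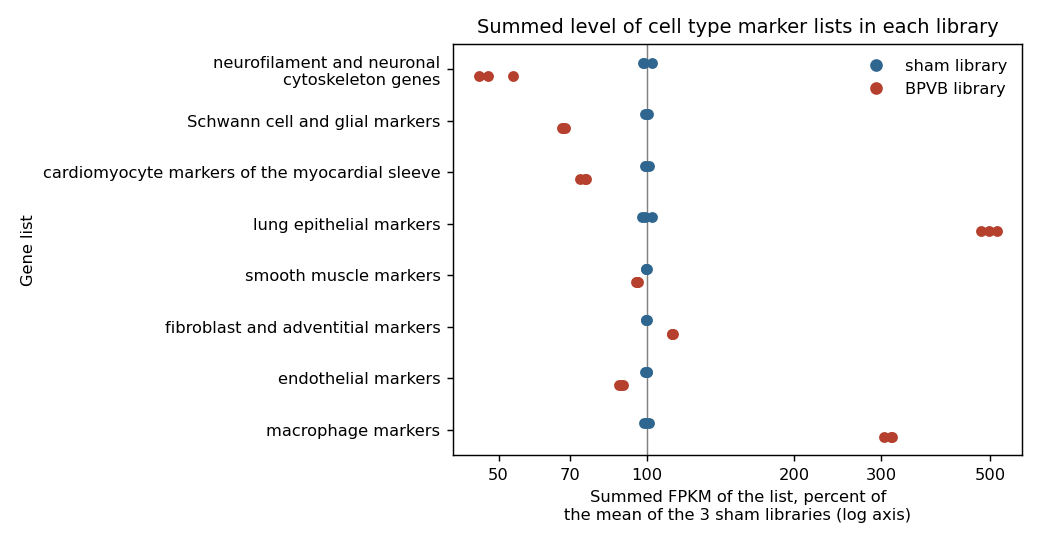
Summed FPKM of the 10 genes and of 7 cell type lists in each library, as a percent of the mean of the 3 sham libraries, on a log axis. Each point is a rat. The 10 genes, which were chosen on this contrast, stand lowest in the BPVB libraries, followed by the Schwann cell and cardiomyocyte lists. The lung epithelial and macrophage lists stand highest.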

How the data were processed

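RNA-seq of the PVs of 3 BPVB and 3 sham rats was used, with groups and replicate numbers from the sample labels. Per the paper's methods, fastp trimming of 150 bp paired-end reads, HISAT mapping and gene counts by HTSeq-count preceded the FPKM that the authors deposited, which are scaled by gene length and library total. The processing notes of the authors name HISAT2 2.0.5, StringTie 1.3.3b, featureCounts 1.5.0-p3 and DESeq2 1.20.0. The paper and the labels name unlike library kits, and the strand setting is not given in the sources used here.

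Fragments were recovered as the whole numbers behind the deposited FPKM, for 100.0% of the 17833 genes within 0.001 fragments. Limits for a count of 0 (3 fragments per library) cover counting error only. Groups were compared with limma 3.58.1 (lmFit, eBayes with trend) in R 4.3.3, and the procedure was tested on simulated data. P-values set the difference between the groups against the spread between the 3 rats within each group, as moderated by limma. The genes, lists and tests were chosen with earlier results of these data known. Named genes are the 10 genes, the 6 nearest profiles of Nefl and of Uchl1 and, for lists described gene by gene, the 3 largest called changes. One gene that this rule names is not reported here. Tubb5, Tubb4b, Map1a, Stmn1, Dbh, Chat, Jun, Ache, Chrna7, S100b, Foxj1, Vim, Nes and Dock5 were named after their values were seen. Alternatives were other pseudocounts, filters and scalings, robust eBayes, a block on the replicate number, limma-voom on fragments, and leaving out each library. Python 3.11.15 with numpy 2.4.6, pandas 2.3.3 and matplotlib 3.10.9 was used otherwise. The table held 0 unused columns of per-sample values.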

Additional observations from a re-analysis of the deposited data

How the results depend on the processing

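The 10 genes kept the direction of their difference in all 145 values under the 15 alternatives. Sizes depended on the scale for genes with few fragments, and the ends of the ranges that follow came from limma-voom on recovered fragments and from a pseudocount of 1, except for Stmn2, where they came from leaving out a library. The log2 fold change of Nefl ranged from -4.27 to -2.51, of Nefm from -3.73 to -0.97, of Elavl4 from -3.56 to -0.29 and of Nefh from -2.83 to -0.16, against -0.24 to -0.10 for Stmn2. Without sham replicate 1, Nefh no longer passed the filter. Of the 10 genes, 3 were below -1. Their number was 2 at a pseudocount of 1 or an FPKM filter of 1, 5 at a pseudocount of 0.1 and 7 with limma-voom on recovered fragments. With a pseudocount of 1, DEGs lower in BPVB numbered 98, and 9 neural-list DEGs were lower and 3 higher. With a pseudocount of 0.1, there were 611 DEGs higher in BPVB and 290 DEGs lower in BPVB, 29 of the latter in the neural lists. With a mean FPKM of at least 1, 26 neural-list genes fell, with 9 DEGs lower and 4 higher. With limma-voom on fragments, DEGs were 715 higher and 407 lower, and 33 neural-list DEGs were lower. Leaving out 1 library at a time gave 2166 to 2232 genes higher and 1751 to 1905 lower, 342 to 357 DEGs higher and 153 to 175 lower, 14 to 16 neural-list genes higher and 34 to 42 lower, 5 to 6 neural-list DEGs higher and 16 to 19 lower, 3 to 4 of the 10 genes below -1, and a ratio of sums from 1.98 to 2.15. The causes were not tested. Of 1007 values of 68 other genes that averaged 0.1 FPKM or more in each group, 978 kept direction and call, 28 lost the call and 0 reversed. The losses not given above were Nts with no filter (limma adjusted p = 0.060) and Myl7, a cardiomyocyte marker, under quantile normalization (limma adjusted p = 0.31). Dock5 passed the threshold with limma-voom (limma adjusted p = 0.019).

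Samples with the same replicate number correlated by 0.0255, 0.0136 and 0.0153 after group means were removed, so the numbers were not treated as pairs, although each sample correlated best with its own number. With the replicate number as a block, 4539 genes were called against 4775 without it, 4317 of them shared, and no call of a named gene changed. Depth limits Nefh, Elavl4, Ina and Nefm, which rest on 12 to 31 fragments over the BPVB libraries.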
